A study of Musca domestica with 8 samples.

Results

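Cell cycle and DNA replication transcripts were examined in the adult housefly (*Musca domestica*) assembly as contigs picked by words of their deposited annotation. These named a cyclin, or a cell division, minichromosome maintenance, DNA polymerase, DNA replication, replication factor or replication protein term. The other words named a proliferating cell nuclear antigen, condensin or kinetochore term, or a histone. The rule also required an insect as the bracketed species and left out histone deacetylases, acetyltransferases and methyltransferases. It gave 65 of the 35834 contigs, under 35 protein names. The contigs spanned 65913 bp in all, from 221 to 2754 bp, and 27 of them had their match in *Glossina*, 14 in *Drosophila*, 14 in mosquitoes, 10 in bees, ants or aphids and 0 in *Musca*. A name is therefore that of the nearest protein in another insect. Another 38 contigs matched the words without an insect in brackets and were left out, 4 of them because no species was given at all. The word list also took in proteins that are not cell cycle proteins by function, namely 5 reverse transcriptase contigs, several transcriptional cyclins and kinases, and a ribosome-recycling factor.

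The 8 samples, No.1 to No.8, were all labelled as the strain 791spin, a housefly strain obtained by selecting the multi-resistant Danish strain 791a with spinosad, an insecticide that acts on nicotinic acetylcholine receptors. Each was described as whole bodies of adult males and females pooled, 5 to 7 days old and fed sugar only, with about 60 flies in a pool. The labels gave 1 condition, and although the series design mentions a susceptible strain, no sample used here was labelled so. No groups could be compared. Nothing in the labels says that the samples came from separate cultures, and whether the spread between them is technical or biological was not tested. The extraction text described a normalized cDNA library, a preparation that evens out abundant and rare transcripts, and whether the counted reads came from such a library is not stated there.

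Cells copy their DNA once per division cycle. Licensing factors such as Cdt1 load the ring-shaped MCM helicase on origins, GINS joins the helicase when replication starts, and RPA, RFC and PCNA work at the moving fork. Histones are made in bulk while DNA is copied, and the cyclins A, B and B3 drive entry into and passage through mitosis. In an adult fly most somatic cells no longer divide, and division continues in the germline and in stem cells of the gut. In an ovary, nurse cells copy their DNA without dividing and load RNA for these proteins into the egg.

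Total counts ranged from 10266664 to 16115208 per sample, so that 3 counts, used here as the detection floor, corresponded to 0.186 to 0.292 counts per 1000000 (CPM). By the chi-square per degree of freedom of pairs of samples, No.1 and No.2 stood farthest from the others over the whole table. This measure grows with depth, and No.1 and No.2 had the largest totals. No.2 held the highest CPM of 29.0% and the lowest CPM of 24.5% of the 23597 contigs that averaged 5 or more counts per sample, whereas No.1 held the highest of 16.4% and the lowest of 13.4%. No.3 held the highest of 19.8% and No.5 the lowest of 21.3%. The pair of No.1 and No.2 had the largest chi-square per degree of freedom of the 28 pairs, 234 against 36.7 for the closest pair. The closest partner gave 103 for No.1 (No.3), 79.4 for No.2 (No.4) and 70.8 for No.3 (No.5). Results that rest on No.2 are given with and without it.

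Counts on the members made up 0.0226%, 0.245%, 0.0281%, 0.0442%, 0.0171%, 0.0426%, 0.0219% and 0.0651% of all counts in No.1 to No.8. The mean was 0.0608% ± 0.0761 (SD, n = 8), and it was 0.0345% ± 0.0170 (SD, n = 7) without No.2. The next highest share was that of No.8, and No.4 and No.6 lay above the 4 odd-numbered samples. At least 1 count was found for 63 members in all and for 42 (No.5) to 60 (No.2) members per sample. The 2 members without any count were a cyclin T contig and the ribosome-recycling factor.

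**Figure D1:**
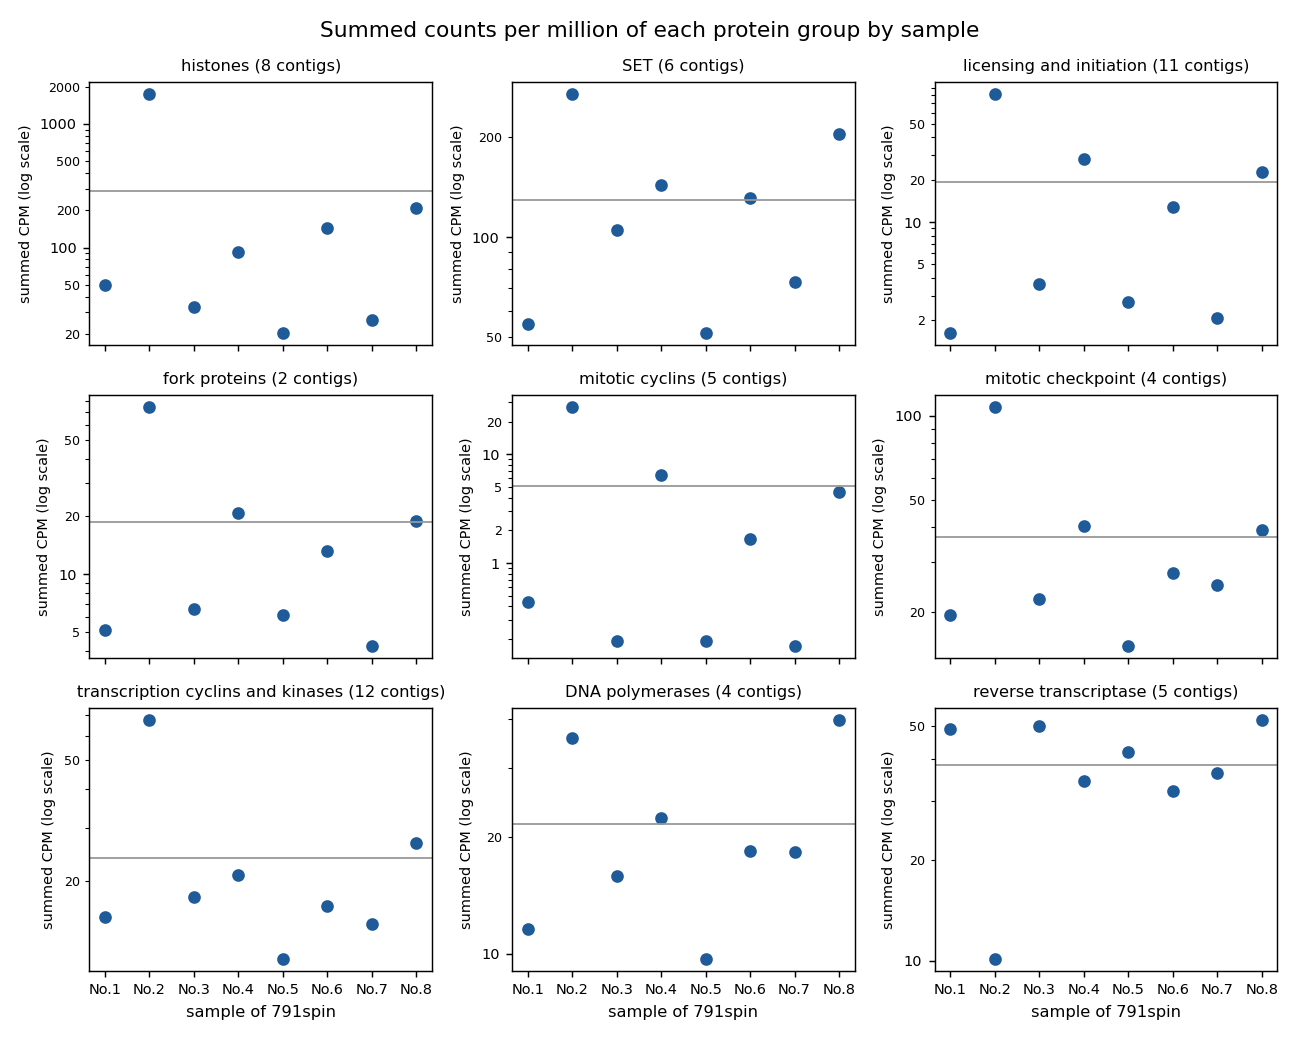
Summed CPM of the contigs of 9 protein groups (log axis, its range set per panel) in each of the 8 samples of 791spin, with the mean over the samples as a grey line. Histones reached 1736 CPM in No.2 and 20.2 to 210.0 CPM elsewhere, whereas reverse transcriptase contigs were lowest in No.2.

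Histones, the proteins that package DNA, had the highest mean CPM of the protein groups, a rank that rested on No.2. The members were of the H2A, H2B and H3.3 types only. Their 8 contigs summed to 49.5, 1736, 33.0, 92.0, 20.2, 145, 26.0 and 210.0 CPM in No.1 to No.8. No.2 was 8.27 times the next sample, No.8. Without No.2 the mean moved from 289 ± 588 (SD, n = 8) to 82.2 ± 71.7 CPM (SD, n = 7), below the 109 ± 55.4 CPM of SET, which exceeded the histones in 5 of the 8 samples.

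The histone contigs with the most counts were those annotated histone H2A-like, M_dom_rep_c8785 (513 bp) and M_dom_rep_c29175 (519 bp), which share 1 match in *Apis mellifera*. Together they had 39.3, 1489, 12.9, 61.5, 11.4, 122, 12.0 and 166 CPM in No.1 to No.8. They took 60.8% of all member counts in No.2 and 4.61% to 28.7% in the other samples. M_dom_rep_c8785 had 2.17 to 3.58 times the counts of its partner in every sample, so the profiles of both were close. Per length, M_dom_rep_c8785 had the highest mean level of the members, 329 CPM per kb. Without No.2 it had 84.8 CPM per kb and came after the SET contig M_dom_rep_c12653 with 111 CPM per kb.

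The contig annotated histone H3.3, M_dom_c486 (705 bp), had 0.745, 111, 0.671, 4.91, 0.769, 2.44, 0.344 and 10.7 CPM in No.1 to No.8. The exact 95% counting intervals of its 2 highest samples, 106 to 116 CPM in No.2 and 8.82 to 12.8 CPM in No.8, lay apart. The ratio of its highest to its lowest sample, 322, was the largest of any member whose lowest sample held at least 3 counts. Histone H3.3 is known as the variant placed on chromatin outside replication and differs from replicative H3 at few residues, so that a best match may not separate them. Another 3 contigs were left out because their match was a fish histone H3.3-like protein, and they were looked at after the members. M_dom_rep_c5688, with the most counts, had 20.2 CPM in No.2 and 13.0 to 33.2 CPM elsewhere, highest in No.3. M_dom_rep_c13340 and M_dom_rep_c14043 were highest in No.2, at 8.22 and 5.45 CPM, with 2.24 to 7.75 and 1.12 to 4.02 CPM in the other samples.

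Histone 2A (2 contigs) had 68.5 CPM in No.2 and 6.06 to 21.8 CPM elsewhere. Histone H2A.V, the variant that *Drosophila* uses at promoters and at DNA breaks, had 19.1 CPM in No.2 and 1.44 to 5.65 CPM elsewhere. The contigs matched to histone H2B.3 went apart. M_dom_c3960 had 47.9 CPM in No.2 and 0.288 to 5.29 CPM elsewhere, whereas M_dom_rep_c11379, with the same match in *Culex*, was highest in No.3 at 1.72 CPM and had 0.345 CPM in No.2. A histone H4 contig, M_dom_rep_c21698, was left out because its match was a horse protein. It was highest in No.4 at 6.51 CPM, with 5.04 in No.2 and 1.63 to 5.16 CPM elsewhere. The left-out M_dom_rep_c6288, matched to a fish histone H2A.V-like protein, had 45.9 CPM in No.2 and 4.16 to 17.7 CPM elsewhere.

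Licensing and initiation proteins (11 contigs) summed to 1.61, 81.0, 3.64, 27.9, 2.69, 12.8, 2.07 and 22.8 CPM in No.1 to No.8. Each of No.2, No.4, No.6 and No.8 was above the other 4 samples here, and No.4 and No.8 were next to No.2. Without No.2 the mean moved from 19.3 ± 26.9 (SD, n = 8) to 10.5 ± 10.9 CPM (SD, n = 7). The main contributor was M_dom_c5320 (2448 bp), annotated only as replication factors MCM, the helicase subunits. With a second, sparse contig it had 0.993, 67.2, 1.63, 23.8, 1.35, 10.2, 0.947 and 15.9 CPM in No.1 to No.8. Mcm7, another helicase subunit, had no counts in No.3 and No.5 and reached 4.07 CPM in No.2, at least 14.1-fold the floor of those samples. Mcm2 peaked at 1.80 CPM and Mcm3 at 0.483 CPM, both in No.2, and their 3 contigs were too sparse to test. A better counted contig, M_dom_rep_c7727, was left out because its match was human MCM3. It was highest in No.7 at 8.78 CPM, with 5.11 CPM in No.2 and 0.769 to 5.21 CPM in the other samples. Cdt1, which loads the helicase, had 5.45 CPM in No.2, 4.28 in No.8 and 0.258 to 2.08 CPM in the other samples. The 4 contigs of the GINS subunit PSF2 summed to 2.00 CPM in No.2 and peaked at 0.911 CPM among the others.

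At the fork, the 30 kD subunit of RPA, which coats single-stranded DNA, had 5.03, 67.3, 5.85, 19.2, 5.96, 12.2, 4.05 and 16.6 CPM in No.1 to No.8. The sum of RPA and RFC3 had a mean of 18.7 ± 23.4 CPM (SD, n = 8) with No.2 and 10.7 ± 6.90 CPM (SD, n = 7) without it. RFC3, a subunit of the complex that loads PCNA, had 7.18 CPM in No.2, 2.28 in No.8 and 0.0621 to 1.51 CPM in the others. PCNA itself, the sliding clamp, was no member because its 3 contigs carry an annotation without a bracketed species, and its values were looked at after those of the members. They summed to 5.03, 115, 10.2, 52.0, 3.08, 15.0, 2.41 and 6.93 CPM in No.1 to No.8. PCNA thus had its highest sample in common with RPA and RFC3, but its value in No.8 lay below those of No.3, No.4 and No.6.

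The mitotic cyclins were sparsely counted. Cyclins A, B and B3 (5 contigs) summed to 0.434, 27.3, 0.192, 6.42, 0.192, 1.66, 0.172 and 4.47 CPM in No.1 to No.8, and No.3, No.5 and No.7 lay below the floor of 3 counts. Without No.2 their mean moved from 5.10 ± 9.26 (SD, n = 8) to 1.93 ± 2.52 CPM (SD, n = 7). Cyclin A, which acts in S phase and early mitosis, had 13.4, 1.70, 1.17 and 2.37 CPM in No.2, No.4, No.6 and No.8. It had no counts in No.3, and No.2 was at least 46.6-fold above the floor of that sample. Cyclin B3 had 10.98 CPM in No.2, 4.72 in No.4 and 1.64 in No.8, with 0 to 0.292 CPM in the other 5. Cyclin B had 2.90 CPM in No.2 (exact 95% interval 2.09 to 3.92) and 0.456 CPM in No.8 (0.148 to 1.06). In No.1, No.4, No.5 and No.7 it had no counts, which does not show that the RNA was absent. The exact 95% intervals there reach up to 0.229, 0.348, 0.355 and 0.318 CPM.

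Proteins of the mitotic checkpoint split. The contigs annotated zw10, a kinetochore protein that also acts in vesicle transport, summed to 13.6, 103, 16.6, 34.1, 11.2, 21.8, 19.97 and 34.5 CPM in No.1 to No.8. The best counted of them, M_dom_c1223, spanned 10.9 to 64.8 CPM. M_dom_rep_c6035, which has the same match, spanned 0.385 to 31.2 CPM, and the ratio of the former to the latter ran from 2.08 in No.2 to 44.8 in No.7. A further contig, M_dom_rep_c21037, had 7.25 CPM in No.2 and no counts in No.5. CDC20 (fizzy), which activates the ligase that destroys mitotic cyclins, behaved otherwise. It had 5.96, 4.21, 5.65, 6.32, 3.85, 5.65, 4.99 and 4.74 CPM in No.1 to No.8. Its highest sample was only 1.64 times its lowest.

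**Figure D2:**
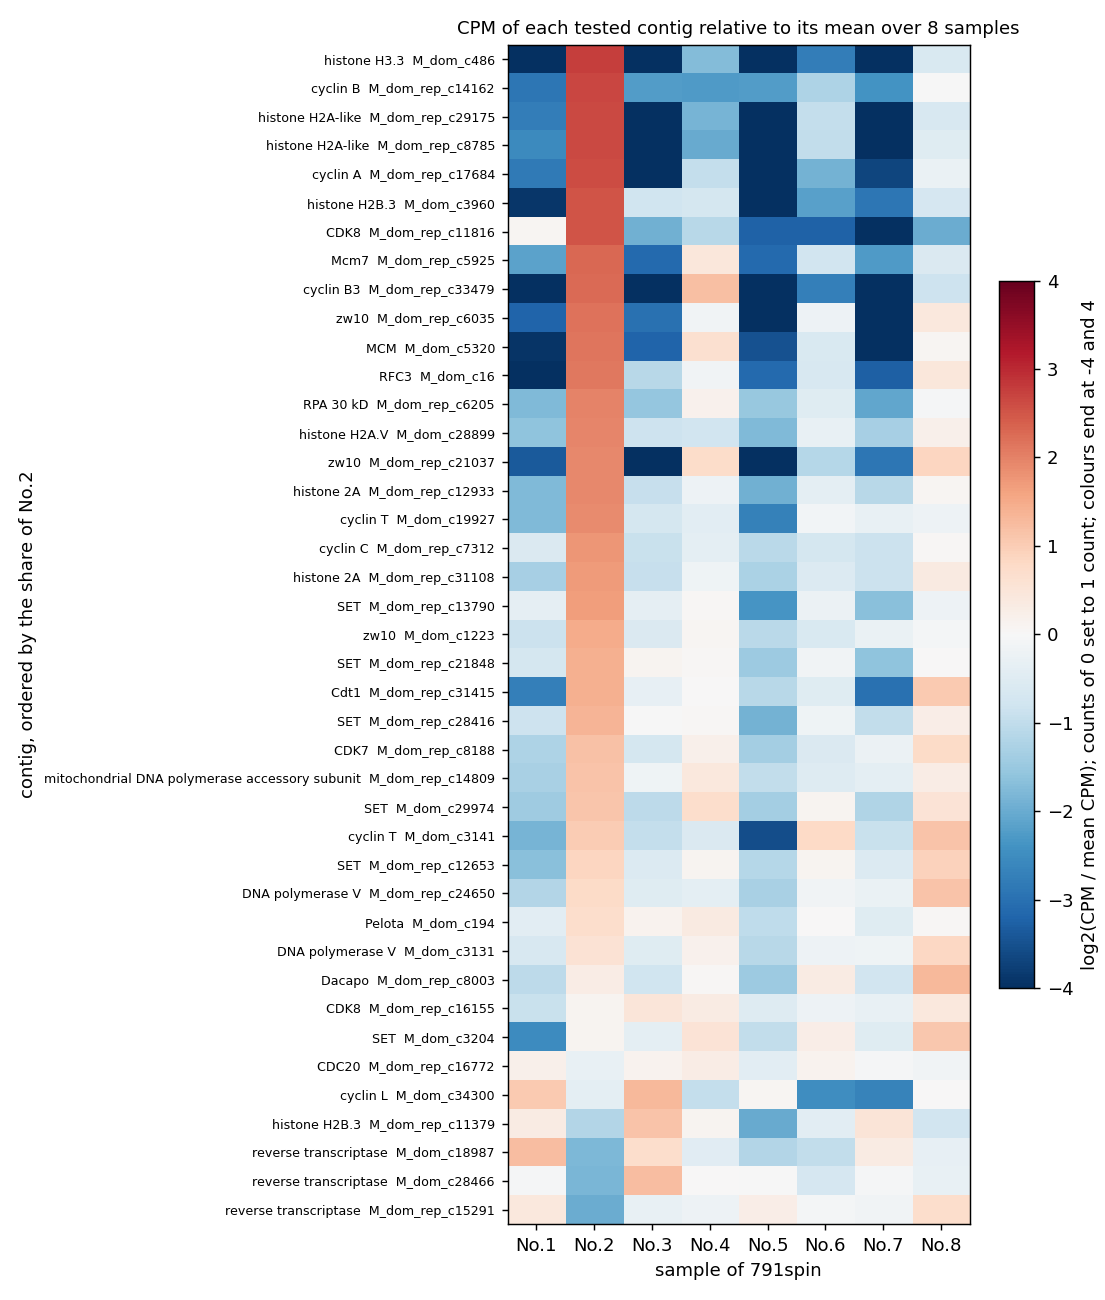
Colour map of the 41 members averaging 5 or more counts (rows, with the contig) in the 8 samples (columns), as log2 of CPM over the contig's mean. The contigs near the top with over 50% of their summed CPM in No.2 include 4 of the 8 histone contigs. The others belong to cyclins A, B and B3, MCM, Mcm7, RFC3, CDK8 (M_dom_rep_c11816) and zw10 (M_dom_rep_c6035). CDC20 (4.21 CPM in No.2 and 6.32 in No.4) is nearly even, and the reverse transcriptase contigs at the bottom are low in No.2.

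SET is a histone chaperone and phosphatase inhibitor that the annotation calls a DNA replication factor. Its 6 contigs summed to 54.7, 269, 105, 144, 51.2, 131, 73.3 and 204 CPM in No.1 to No.8, and the ratio of No.2 to the next sample was 1.32. The contig with the most counts, M_dom_rep_c12653 (487 bp), was highest in No.8 at 116 CPM, with 109.9 in No.2 and 19.2 to 66.0 CPM in the others. M_dom_rep_c21848 and M_dom_rep_c28416 were highest in No.2, at 61.0 and 41.6 CPM. M_dom_rep_c13790 had 36.3 CPM in No.2, and the ratio of M_dom_rep_c12653 to it ran from 2.14 in No.1 to 12.4 in No.5. Contigs of 1 protein can be parts of 1 transcript, alleles or paralogs, and the counts cannot tell these apart.

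No replicative polymerase was among the 4 DNA polymerase contigs. DNA polymerase V, named after a yeast protein of ribosomal RNA synthesis, had 36.0 CPM in No.8, 29.2 in No.2 and 8.17 to 18.2 CPM elsewhere. Its longer contig, M_dom_c3131, spanned 5.19 to 19.9 CPM. The accessory subunit of the mitochondrial polymerase had 6.70 CPM in No.2 and 1.24 to 4.06 CPM elsewhere. The polymerase zeta contig had 3 counts in all.

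Dacapo, the *Drosophila* inhibitor of cyclin E kinase, was highest in No.8. It had 1.92, 4.90, 2.30, 4.06, 1.44, 4.97, 2.32 and 9.75 CPM in No.1 to No.8. The even-numbered samples were again above the odd-numbered ones, but No.2 did not stand out. CKS1, a small subunit of cyclin-dependent kinases, had 0.0911 to 1.04 CPM over 2 contigs.

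The cyclins and kinases that act in transcription (12 contigs) summed to 15.3, 67.7, 17.8, 21.0, 11.2, 16.6, 14.5 and 26.7 CPM in No.1 to No.8. Cyclin C, the partner of CDK8 in the Mediator complex, had 42.2 CPM in No.2 and 5.86 to 12.8 CPM elsewhere, and made up over 50% of this sum in 3 of the 8 samples. CDK8 contigs with 1 match in an aphid differed. M_dom_rep_c16155 spanned 2.48 to 6.52 CPM with its highest value in No.3, whereas M_dom_rep_c11816 had 10.4 CPM in No.2, 1.92 in No.1 and no more than 0.849 CPM in the other 6. CDK7, which activates other cyclin-dependent kinases and phosphorylates RNA polymerase II, had 3.87 CPM in No.2, 2.92 in No.8 and 0.673 to 1.98 CPM elsewhere. Cyclin T summed to 5.32 CPM in No.2 and 0.192 to 3.28 CPM elsewhere, and cyclin L was highest in No.3 at 1.34 CPM.

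Of the members that entered by name alone, Pelota, a protein that rescues stalled ribosomes and is needed for meiosis in *Drosophila*, had 16.1, 35.2, 23.8, 27.5, 10.7, 21.7, 15.4 and 22.1 CPM in No.1 to No.8. CCAR1, cyclin M2 and a cell division control protein had at most 0.345 CPM in any sample. The reverse transcriptase contigs, which belong to mobile elements, ran the other way, with 49.1, 10.1, 50.1, 34.3, 41.9, 31.9, 36.2 and 52.2 CPM. Their best counted contigs, M_dom_rep_c15291, M_dom_c28466 and M_dom_c18987, had 6.28, 3.18 and 0.552 CPM in No.2, the lowest value of each over the 8 samples.

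Whether a contig differed between the samples by more than counting error was examined by a chi-square test of its counts against the totals, with Benjamini-Hochberg adjustment over the 23597 contigs. Of the 65 members, 41 averaged 5 or more counts and were tested, and 24 were not. The test called 40 of the 41, beside 95.1% of all contigs tested, a background so high that the count says little about these proteins. CDC20 was the exception (chi-square test, adjusted p = 0.0997). The largest adjusted p among the called members were those of M_dom_rep_c11379 of histone H2B.3 and M_dom_c34300 of cyclin L (chi-square test, adjusted p = 0.000974 and 4.69e-05). The highest CPM was at least 4 times the lowest, values under 3 counts being raised to 3 counts, in 37 of the 41 members and in 62.6% of all contigs tested.

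The spread beyond counting error was measured as the edgeR dispersion, roughly the squared coefficient of variation between samples. Its median was 0.493 over the 41 members and 0.303 over all contigs tested, of which 77.8% lay at or below the members' median. Without No.2 the medians were 0.289 over 38 members and 0.219 over all contigs. Among the 34 members averaging 20 or more counts, histone H3.3 (2.10), M_dom_rep_c33479 of cyclin B3 (2.09), M_dom_rep_c17684 of cyclin A (1.96), the H2A-like contigs (1.74 and 1.67), M_dom_rep_c21037 of zw10 (1.59), M_dom_rep_c11816 of CDK8 (1.46) and M_dom_c3960 of histone H2B.3 (1.43) had the largest values. The smallest belonged to CDC20 (0.139), M_dom_rep_c16155 of CDK8 (0.177), Pelota (0.184), M_dom_c3131 of DNA polymerase V (0.231) and the reverse transcriptase contig M_dom_c28466 (0.281).

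**Figure D3:**
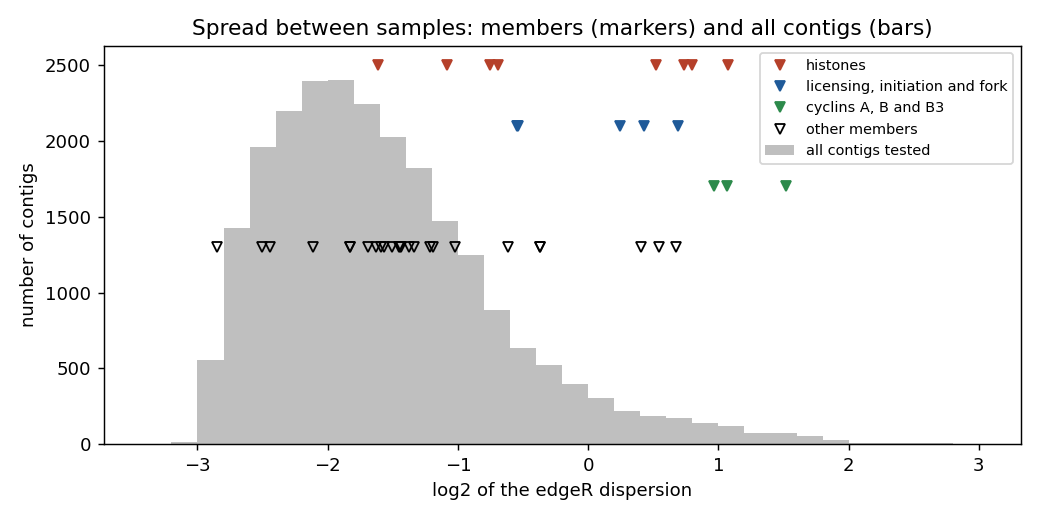
Distribution of the log2 of the edgeR dispersion over the 23597 contigs tested (grey bars, number of contigs) with the 41 tested members as triangles by protein group, whose height has no meaning. Cyclins A, B and B3 lie towards the right, the 5 smallest values of well counted members run from 0.139 to 0.281, and the members' median of 0.493 is to the right of the median of all contigs, 0.303.

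The samples were ordered for each contig. No.2 was the highest sample of 28 of the 41 members (68.3%) and of 29.0% of all contigs tested. No.8 was the highest sample of 7 members (17.1%, beside 6.94% of all contigs) and No.3 of 4 (9.76%, beside 19.8%), and No.1 and No.4 of 1 each. The lowest sample was No.5 for 19 members (46.3%, beside 21.3% of all contigs), No.1 for 8 (19.5%, beside 13.4%) and No.7 for 8 (beside 9.33%). No.2 was lowest for 3 members (7.32%, beside 24.5%), No.3 for 2 and No.6 for 1. With No.2 left out, No.8 became the highest sample of 23 of the same 41 members (56.1%, beside 15.6% of all contigs), followed by No.4 with 10 (24.4%, beside 15.8%). No.4 and No.8 were the lowest sample of 0 members. All sets of 4 samples were also counted. The 4 highest samples were No.2, No.4, No.6 and No.8 for 20 of the 41 members (48.8%) and for 8.05% of all contigs tested, the most common set in both. The next set among the members was No.2, No.3, No.4 and No.8 with 7. These counts describe the order of samples that carry 1 label, and contigs counted in the same libraries are not independent of each other.

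**Figure D4:**
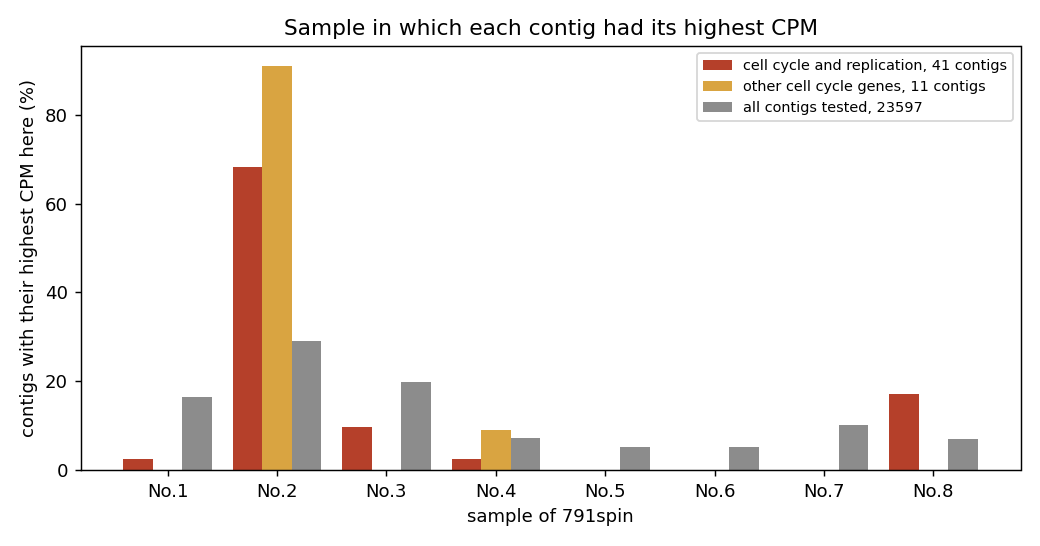
Percent of contigs (vertical axis) whose highest CPM fell in each of the 8 samples (horizontal axis), for 41 members, 11 other cell cycle genes and all 23597 contigs tested. The bar of No.2 reaches 68.3% for members, 90.9% for the other cell cycle genes and 29.0% for all contigs.

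Cell cycle genes outside the word list were taken from a separate list of terms, such as thymidylate synthase, geminin, cohesin and condensin (SMC) subunits, chromatin assembly factor and MAD1. It gave 18 contigs, of which 11 were tested, 10 varied by the chi-square test (90.9%), 9 spanned at least 4-fold (81.8%), and 10 were highest in No.2 (90.9%). The shares over all contigs tested were 95.1%, 62.6% and 29.0%. The samples No.2, No.4, No.6 and No.8 were the 4 highest for 3 of the 11 (27.3%, beside 8.05% of all contigs). Thymidylate synthase, which makes a DNA precursor, had 0.931, 57.9, 2.49, 17.4, 1.44, 14.8, 2.58 and 28.4 CPM in No.1 to No.8, and was 1 of these 3. The contig M_dom_rep_c12052, annotated geminin, the inhibitor of Cdt1, had 7.46 CPM in No.2, 1.04 in No.4 and 0 to 0.390 CPM elsewhere. The p180 subunit of chromatin assembly factor 1, which places new histones on copied DNA, had 16.2 CPM in No.2, 10.3 in No.8 and no more than 2.82 CPM otherwise. The contig that was not highest in No.2, M_dom_rep_c14243 (SMC6, a repair complex subunit), had 14.2 CPM in No.4 and 4.42 in No.2. A better counted contig with the same match, M_dom_rep_c8900, was highest in No.2 at 47.2 CPM.

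Markers of other cell types were summed in each sample, because in pooled whole flies fewer cells of a type and less RNA per cell cannot be told apart. Yolk protein contigs (29, of which 27 had counts) had 19.98, 205, 7.19, 2810.1, 126, 1827, 29.4 and 3934 CPM in No.1 to No.8. They were high in No.4, No.6 and No.8, as the members were to a lesser degree, but No.2, the highest sample of histones and cyclins, had far less yolk RNA than these. Eggshell contigs (6) had 0.276, 1.60, 26.3 and 396 CPM in No.2, No.4, No.6 and No.8, and no more than 0.0961 CPM in the odd-numbered samples. The list of germline and maternal RNAs (12 contigs) spanned 35.6 to 162 CPM with its highest value in No.2. Of this, 32.8 to 70.8 CPM lay on a single contig annotated as the vasa intronic gene, highest in No.8 with 64.6 CPM in No.2. That contig entered the list by the word vasa in its name and held 49.9 of the 53.8 CPM of the list in No.1. Whether it marks germline RNA was not examined. The 6 nanos contigs of the list name a germline RNA regulator and were singled out after their values were seen. They had 0.372, 92.7, 0.192, 25.9, 0.192, 4.48, 1.21 and 19.6 CPM in No.1 to No.8. The highest value of the list in No.2 thus rested on nanos. The order of No.2, No.4, No.8 and No.6 was the same for nanos and for the summed mitotic cyclins. Of the single cyclins, B3 had this order. Cyclin A had 2.37 CPM in No.8 and 1.70 in No.4, and cyclin B had no counts in No.4. The sums of licensing and initiation, fork and mitotic checkpoint proteins had the order of nanos too. Within these sums MCM, Mcm7 and RPA had it, whereas in Cdt1, RFC3 and zw10 No.8 lay above No.4. In histones, SET and the transcription cyclins and kinases No.8 lay above No.4, and in PCNA No.6 lay above No.8. Muscle contigs (35) had 540.1 CPM in No.2, their lowest value, and 1299.8 to 5679 CPM elsewhere. No contig matched the sperm tail list. The part of any of these cell types in the values of the members was not tested.

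**Figure D5:**
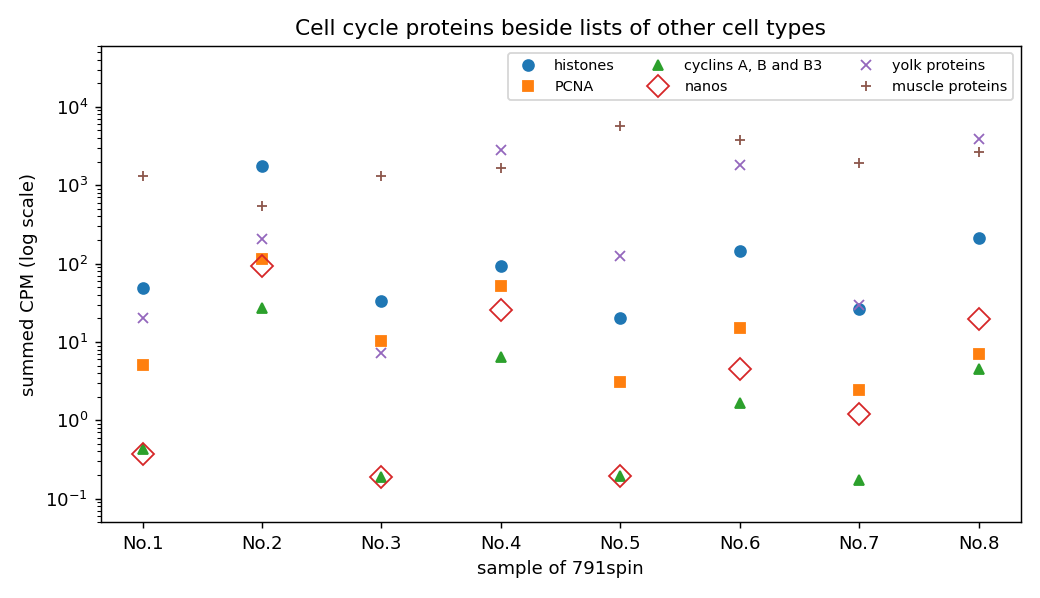
Summed CPM (log axis) of histones, PCNA, cyclins A, B and B3, nanos, yolk protein and muscle contigs in each of the 8 samples. Histones (1736 CPM), PCNA (115 CPM), mitotic cyclins (27.3 CPM) and nanos (92.7 CPM) are highest in No.2, yolk protein contigs are highest in No.8 (3934 CPM), and muscle contigs are lowest in No.2 (540.1 CPM).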

How the data were processed

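The authors deposited whole-number read counts per contig of an assembly of pyrosequencing reads in 8 columns, which carry the sample titles, beside contig length, annotation and a rescaled copy of the counts that was not used. The sources used here do not name the aligner or the counting program, and strand and shared reads between similar contigs are unknown. CPM were computed on the totals. Homogeneity was tested per contig by chi-square on the counts (mean of at least 5, Benjamini-Hochberg, 0.05), which covers counting error only, as do the exact intervals and the floor of 3 counts. Dispersions came from edgeR 4.0.16 (TMM, intercept only), with DESeq2 1.42.0 for alternatives, in R 4.3.3, and other steps used Python 3.11.15, scipy 1.17.1 and pandas 2.3.3. On data simulated with counting error alone, the contig test called 62.7% of contigs changed 2-fold in 1 sample, 98.5% of those changed 4-fold and 0.120% of 23397 unchanged ones. Named contigs were the 3 with the highest mean CPM in each class of annotation words, and the 8 largest and 5 smallest dispersions among members with a mean count of at least 20. Those classes put MCM with the fork proteins and SET with the licensing factors, so contigs were grouped into 11 groups by protein after annotations and values had been seen, and proteins outside the rule were named after their values were seen. Members and lists were chosen with earlier results of these data known. No sequences of the contigs were used here.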

Additional observations from a re-analysis of the deposited data

Results flagged for a closer look

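In each group of 8 values, the gap between the most extreme sample and its neighbour was compared with the whole range. A sample counted as far when this ratio passed a cutoff that chance passes in about 1 in 20 cases for normally distributed values. The CPM were used without a log scale and were skewed, with an SD above the mean for histones (588 and 289 CPM). The chance rate for such values is therefore unknown, and the number of far samples cannot be set against 1 in 20. Of 38 values examined (the share of counts, protein groups and single proteins), 23 had such a far sample, and it was No.2 in 22 of them. Proteins counted in the same libraries are not independent, and the share and the groups contain the single proteins. Such gaps were not counted over all contigs tested, of which 29.0% were highest in No.2. The 22 values therefore have no background share beside them and do not show that the members were unusual. The values of No.2 that lay far above the others were the share of counts on members (0.245%) and the sums of histones (1736 CPM), licensing and initiation proteins (81.0 CPM), fork proteins (74.5 CPM), mitotic cyclins (27.3 CPM), mitotic checkpoint proteins (107 CPM) and transcription cyclins and kinases (67.7 CPM).

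Single histones far above the others in No.2 were H2A-like (1489 CPM), H3.3 (111 CPM), histone 2A (68.5 CPM), H2B.3 (48.3 CPM) and H2A.V (19.1 CPM). Among replication proteins these were RPA 30 kD (67.3 CPM), MCM (67.2 CPM), RFC3 (7.18 CPM) and Mcm7 (4.07 CPM). Among cyclins, kinases and kinetochore proteins they were zw10 (103 CPM), cyclin C (42.2 CPM), CDK8 (15.9 CPM), cyclin A (13.4 CPM), cyclin B3 (10.98 CPM) and cyclin B (2.90 CPM). The exception was Dacapo, whose far sample was No.8 (9.75 CPM).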

How the results depend on the processing

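No paired analysis was possible because all samples carry 1 condition. Of 272 results under alternative settings, 269 kept their value within the limits set for each kind of result and 0 reversed. The other 3 came from admitting contigs with a match in any species or none, which moved the members called as varying from 40 of 41 tested to 64 of 65, the class of cell division words from 27.1 to 46.9 CPM and the class of cyclin words from 20.3 to 122 CPM. TMM or DESeq2 scaling, leaving the 10 most counted contigs out of the totals, dropping the reverse transcriptase contigs and dividing by contig length kept theirs. With a mean count of at least 20 the test called 33 of 34 members, and with any count 54 of 63. Leaving out each sample in turn gave 37 to 40 members called, a share of counts of 0.0345% to 0.0671%, a median dispersion of 0.289 to 0.547, and means of 82.2 to 327 CPM for histones, 10.5 to 21.8 for licensing and initiation, 10.7 to 20.8 for fork proteins and 1.93 to 5.80 for mitotic cyclins. The lowest of these values came without No.2 (37 of 38 tested members called). Leaving it out moved the share, the median dispersion and these means by more than 1.5 times. Histones moved from 289 to 82.2 CPM and mitotic cyclins from 5.10 to 1.93 CPM. All stayed within the large spread between samples, but No.2 itself widened that spread (SD of histones 588 CPM with it, 71.7 CPM without it). The limits could therefore hardly register its removal. The 24 members under a mean count of 5 are limited by depth.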
